A study of Nicotiana tabacum with 6 samples.

Results

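The genes described here are those that the deposited table names for the path by which plants take up sulfate and reduce it, in seedlings of cultivated tobacco (Nicotiana tabacum). They were picked by symbol: every gene whose first deposited name was SULTR followed by a digit, APS, APR or SAT followed by a number, or SIR. The path itself was chosen with earlier results of these data known, among them those of the APS4 gene Nitab4.5_0000977g0040. This gave 78 of 69500 genes. Of these, 36 carry SULTR names, 25 APS names, 6 the name APR1, 2 the name SIR and 9 SAT names. Messenger RNA was sequenced from seedlings that received a nutrient solution with 7.5 mM ammonium nitrate (control) or with 0.75 mM (low nitrogen) for 15 days, with fresh solution every 7 days. Each group had 3 libraries. The labels give no cultivar, age or organ, and they do not say whether libraries came from separate plants, so each p-value rests on the spread among libraries alone, which may be technical.

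Sulfate enters root cells through transporters of the SULTR family. ATP sulfurylase (APS) joins it to ATP, APS reductase (APR) reduces the product to sulfite in plastids, and sulfite reductase (SIR) reduces sulfite to sulfide. Serine acetyltransferase (SAT) makes O-acetylserine, the carbon and nitrogen skeleton that takes up sulfide to form cysteine. The path thus joins sulfur to nitrogen assimilation, and in Arabidopsis and other plants APR and root SULTR transcripts are known to respond to both nutrients. The deposited symbols carry loci of other species, such as Arabidopsis and rice, so the roles given below are those of the named genes in those species.

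The label of the path holds for 59 of the 78 genes. The other 19 are named APS1 with the synonym APS-1(1), which is the gene name of acid phosphatase 1 of tomato and not of an ATP sulfurylase. All genes named APS4 carry the locus of ATP sulfurylase 4 of Arabidopsis. The APS1 genes are therefore described apart, at the end. What each gene encodes rests on its deposited name alone, since no member's sequence was used here. No gene was named SULTR2 or SULTR4, the transporters known in Arabidopsis for movement between organs and for release from the vacuole.

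The libraries held 13027374 to 15620067 counts. Summed levels of 26 root marker genes were 796 to 1320 CPM (counts scaled to a library of 1000000) in the 6 libraries, with 1 marker at 0. The QPT gene Nitab4.5_0000742g0010 held 70358 counts over all libraries and the next marker 5000, so this sum mostly follows 1 gene. Summed levels of 149 photosynthesis genes ran, from replicate 1 to 3, at 115, 69.3 and 1858 CPM in the control and at 1069, 464 and 169 CPM in low nitrogen, with 10 genes at 0. Control replicate 3 thus stood apart from the other controls, and low nitrogen replicate 1 was highest in its group. Over all tested genes, the deviations of these libraries from their group means correlated at 0.38. Values without control replicate 3 are given beside many of the results that rest on it, but not all. In such bulk samples a smaller number of cells of a type and less RNA per cell cannot be told apart.

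Most tested genes of the path had fold changes below 0 in low nitrogen, and with edgeR's quasi-likelihood test none of them passed the threshold. Among the summed steps described below, in CPM without TMM scaling, only SULTR group 1 and SIR were lower with no overlap between the groups. With TMM-scaled library sizes SULTR group 3 was also lower with no overlap. Of the 78 genes, 60 had enough counts to be tested, and 44 of these were in the path proper (without APS1). Adjusted p was under 0.05 for 0 of the 60 genes with edgeR, against 0% of all 38482 genes tested. limma-voom also called 0. At an unadjusted p under 0.05, 11 of the 60 genes were lower, against 5.66% of all genes, and 2 were higher, against 6.1%. Both counts moved with single libraries. Without control replicate 3 the edgeR counts were 12 lower and 6 higher, against 6.69% and 8.6% of all genes in that fit. Without low nitrogen replicate 1 they were 6 lower and 1 higher, in a fit for which no share of all genes was computed. Without the APS1 genes the counts were 10 lower and 1 higher of 44. Fold changes were below 0 for 33 of those 44 genes, against 49.7% of all genes, and their median log2 fold change was -0.44, against 0.0029 over all genes tested. The 44 include 9 genes of SULTR group 1 and 16 of group 3, so both values lean on copies of SULTR genes. For the 44 genes neither value is given without control replicate 3. For all 60 the median was -0.22, and -0.31 without that library. A gene that passes the filter on low counts only through the group where it is high has to differ, so these counts describe the tested genes and not all 78. DESeq2, run on the same filtered genes, called 4 of the 56 members for which it gave a p-value. It gave none for SULTR1;1 genes Nitab4.5_0000214g0050, Nitab4.5_0000469g0210 and Nitab4.5_0004386g0020 and for APS1 gene Nitab4.5_0005085g0050. Each of them was at least 4 times higher in control replicate 3 than in both other controls. With these included, 7 of the 60 tested members had no DESeq2 adjusted p and could not be called, as had 2294 of all 38482 tested genes. A SULTR3;3 gene was called higher, as were 0.71% of all genes, and an APS4 gene and both SIR genes were called lower, as were 0.82%. This APS4 gene, Nitab4.5_0000977g0040, was known when the path was chosen. It is also 1 of the 11 genes lower with edgeR, so the counts that include it are descriptions. A second DESeq2 run, on all genes without the filter, was added after those calls were seen. It called 3 of 68 members, 1 higher (0.521% of all genes) and 2 lower (0.625%), and 1 of the SIR genes no longer passed. In that run members with few counts had a p-value but no adjusted p, so not all of the 68 could be called.

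**Figure D1:**
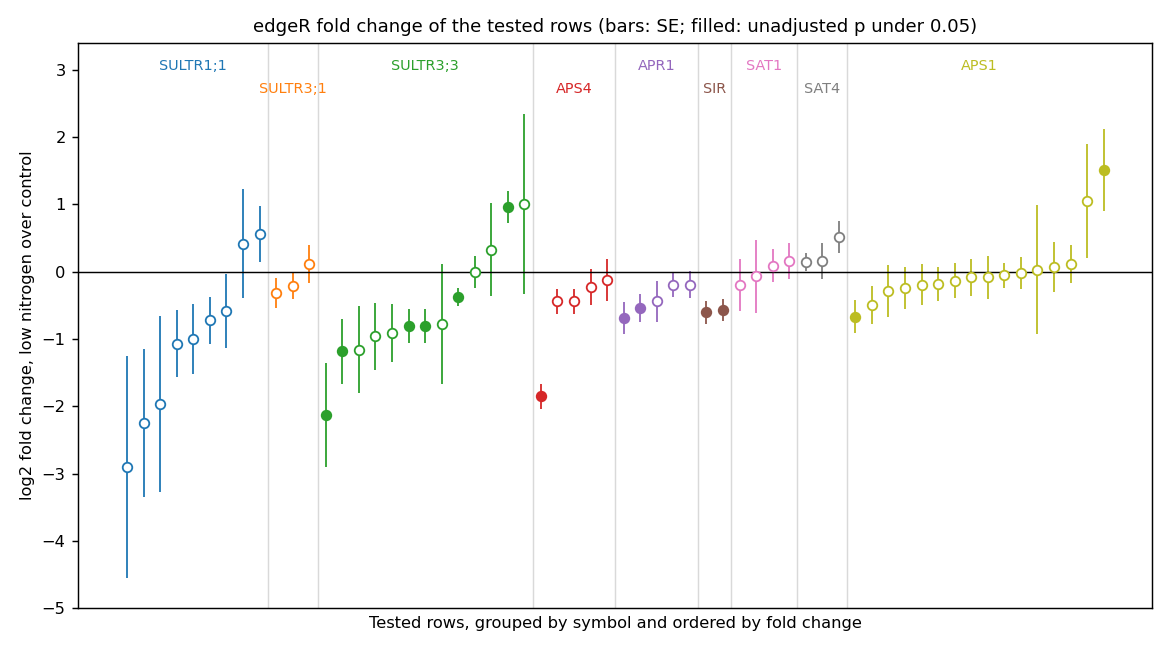
Points show the edgeR log2 fold change (low nitrogen over control, 3 libraries each) of the 60 tested genes by symbol, bars show its SE, and filled points have an unadjusted p under 0.05. All 5 APS4, 5 APR1 and 2 SIR genes lie below 0, the 3 SAT4 genes lie above 0, and 1 APS4 gene lies at -1.85, well below the other 4.

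Group 1 of the SULTR family holds the high-affinity carriers that bring sulfate into Arabidopsis roots, and its 14 SULTR1;1 genes gave a lower summed level in low nitrogen. The sum over all 16 group 1 genes, from replicate 1 to 3, stood at 204, 186 and 184 CPM in the control and at 118, 140 and 104 CPM in low nitrogen. Every control library was above every low nitrogen library. The means were 191 ± 10.9 and 121 ± 18.0 CPM (SD, n = 3), a log2 ratio of -0.66, with p = 0.10 in a two-sided exact permutation test, the smallest value that 3 against 3 libraries allow (0.30 after Benjamini-Hochberg adjustment over 6 steps). With counts summed over each symbol and all symbols fitted together, SULTR1;1 had a log2 fold change of -0.75 (SE 0.14) and an edgeR adjusted p of 0.283. The 2 SULTR1;2 genes had at most 1 count in any library and were not tested.

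The genes behind this sum differed between the controls. Of the 9 tested SULTR1;1 genes, 4 were at least 4 times higher in control replicate 3 than in both other controls, as were 1.83% of all tested genes. Nitab4.5_0004386g0020 was at 1.30, 1.05 and 40.3 CPM in the controls and at 6.23, 1.87 and 2.91 CPM in low nitrogen. Nitab4.5_0000469g0210 was at 0.162, 0.0750 and 23.6 CPM in the controls and at 1.54, 0.749 and 0.902 CPM in low nitrogen. Nitab4.5_0000214g0050 and Nitab4.5_0000421g0150 shared the peak, at 18.5 and 11.3 CPM in control replicate 3. Together these 4 genes, grouped here after their values were seen, took 2.07%, 1.82% and 52.2% of the SULTR1;1 counts in the controls and 14.9%, 5.73% and 12.6% in low nitrogen. A further gene too low to be tested, Nitab4.5_0001399g0050, had 42 counts in control replicate 3 and 0 in every other library. Photosynthesis transcripts were highest in the same library. Their part in this pattern was not tested.

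The SULTR1;1 genes that took most counts in the other controls ran the opposite way. Nitab4.5_0001254g0010 was at 81.5, 45.2 and 15.6 CPM in the controls and at 35.7, 40.3 and 18.7 CPM in low nitrogen, with a log2 fold change of -0.58 (SE 0.55) that became 0.047 without control replicate 1. Nitab4.5_0002566g0030 was at 48.2, 69.4 and 24.9 CPM in the controls and at 26.3, 35.8 and 24.1 CPM in low nitrogen. Nitab4.5_0000078g0090 was at 45.7, 34.9 and 11.1 CPM and at 12.7, 20.5 and 10.3 CPM, with a log2 fold change of -1.07 (SE 0.50, edgeR adjusted p 0.449). In these 3 genes control replicate 3 lay among or below the low nitrogen libraries, so the groups overlapped. Of the 9 genes 3 were at no more than 0.5 times both other controls in control replicate 3, against 1.97% of all genes. One gene, Nitab4.5_0006548g0010, was highest in low nitrogen replicate 3 (31.3 CPM, against 9.34 to 19.2 CPM in the controls). Without control replicate 3, 4 of the 9 genes were lower and 3 higher at an unadjusted edgeR p under 0.05 (6.69% and 8.6% of all genes), and with all libraries both counts were 0.

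**Figure D2:**
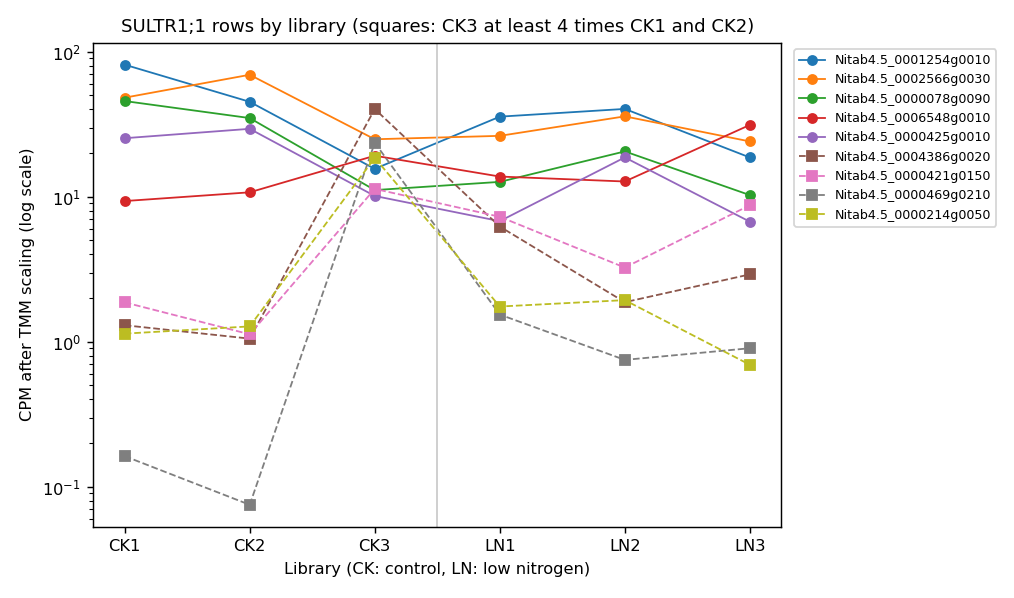
CPM after TMM scaling (log axis) of the 9 tested SULTR1;1 genes in each library, with lines that only join the values of a gene. Squares with dashed lines mark the 4 genes that were at least 4 times higher in control replicate 3 (CK3) than in the other controls, while 4 of the 5 genes drawn as circles were lower there.

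Group 3 of the family, whose members carry sulfate into plastids in Arabidopsis, differed from gene to gene. The sum over its 20 genes stood at 353, 317 and 399 CPM in the controls and at 302, 326 and 285 CPM in low nitrogen, with overlap between the groups (log2 ratio -0.23, two-sided exact permutation p = 0.20). Of 13 tested SULTR3;3 genes, 5 were lower and 1 higher at an unadjusted edgeR p under 0.05, against 5.66% and 6.1% of all genes. Without control replicate 3 the counts were 2 lower and 2 higher, in a fit with fewer libraries, against 6.69% and 8.6% of all genes in that fit. The 3 tested SULTR3;1 genes gave log2 fold changes of -0.32 to 0.12, and the one with the most counts, Nitab4.5_0000914g0310, was at 37.0, 43.7 and 27.3 CPM and at 29.2, 29.1 and 35.1 CPM.

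The SULTR3;3 gene that was higher, Nitab4.5_0000678g0050, was at 13.6, 18.9 and 20.2 CPM in the controls and at 35.4, 25.2 and 42.1 CPM in low nitrogen. Every low nitrogen library was above every control, as for 9.66% of all tested genes. Its mean was 1.95 times the control mean, with a log2 fold change of 0.96 (SE 0.23), an edgeR adjusted p of 0.339 and a DESeq2 adjusted p of 0.0398 (0.0403 on all genes). The edgeR and limma-voom alternatives gave adjusted p of 0.156 to 0.853. Among those lower, Nitab4.5_0004355g0040 was at 96.6, 66.4 and 57.6 CPM in the controls and at 30.8, 50.4 and 44.9 CPM in low nitrogen, a log2 fold change of -0.81 (SE 0.25, edgeR adjusted p 0.373) that was -0.97 without control replicate 3. Nitab4.5_0000688g0070 was at 24.6, 19.2 and 28.5 CPM and at 9.65, 17.7 and 14.0 CPM, and Nitab4.5_0001948g0060 at 65.5, 55.9 and 67.0 CPM and at 51.8, 48.2 and 45.2 CPM. In these 3 genes and in Nitab4.5_0013869g0010 (1.65 to 2.27 CPM in the controls and 0.490 to 1.46 CPM in low nitrogen) the groups did not overlap, so that 4 of 13 genes were lower with no overlap, against 8.54% of all genes. Nitab4.5_0013869g0010 had 22, 22 and 32 counts in the controls and 7, 9 and 21 in low nitrogen. It passed the filter on low counts through the controls, where it was high. The counts of lower SULTR3;3 genes that include it are therefore descriptions. Without control replicate 3 the log2 fold changes were -0.68 for Nitab4.5_0000688g0070, -0.34 for Nitab4.5_0001948g0060 and -1.05 for Nitab4.5_0013869g0010. The fifth, Nitab4.5_0002438g0030, was at 4.95, 3.98 and 24.1 CPM and at 1.40, 1.94 and 4.23 CPM, again with its peak in control replicate 3, and its log2 fold change moved from -2.13 to -0.83 without that library. The SULTR3;3 gene with the most counts, Nitab4.5_0000729g0130, was level at 84.9, 76.5 and 101 CPM and at 94.0, 107 and 59.4 CPM, with a log2 fold change of -0.0083 (SE 0.23).

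Activation of sulfate rests on ATP sulfurylase, and 1 of its 6 genes stood apart while the sum was close in both groups. The APS4 gene Nitab4.5_0000977g0040 was at 33.3, 33.4 and 35.8 CPM in the controls and at 7.63, 8.81 and 12 CPM in low nitrogen. The controls were nearly alike, control replicate 3 included. Every one of them was above every low nitrogen library, as for 8.54% of all tested genes. The means of 34.1 ± 1.39 and 9.48 ± 2.26 CPM (SD, n = 3) differ by 3.60 times, and the log2 fold change was -1.85 (SE 0.19, edgeR adjusted p 0.138). It ranked 3 by p among all genes tested. This gene was known from earlier results of these data when the path was chosen, so its rank is a description. With DESeq2 it fell, with an adjusted p of 1.96e-12 (4.81e-12 on all genes), while the other alternatives gave adjusted p of 0.0575 to 0.637. Its log2 fold change lay between -2.05 and -1.69 in the 15 alternatives tried.

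Of all APS4 counts the same gene held 3.34%, 3.18% and 5.51% in the controls and 1.42%, 1.04% and 1.27% in low nitrogen. Nitab4.5_0000224g0030 and Nitab4.5_0000629g0050 took most of the rest. The first was at 610, 663 and 377 CPM in the controls and at 341, 523 and 642 CPM in low nitrogen. The second was at 310, 320 and 201 CPM and at 166, 285 and 258 CPM. Low nitrogen replicate 1 and control replicate 3, where photosynthesis sums were highest, gave the lowest values of both genes. The part of those transcripts in these levels was not tested. Their log2 fold changes were -0.13 (SE 0.31) and -0.23 (SE 0.27), with edgeR adjusted p of 0.883 and 0.745. Of the remaining genes, Nitab4.5_0001936g0110 and Nitab4.5_0003536g0050 each had a log2 fold change of -0.44 (unadjusted edgeR p 0.0505 and 0.0528), and the last held 13 counts in all. Nitab4.5_0001936g0110 was at 16.5 to 21.3 CPM in the controls and 11.1 to 15.9 CPM in low nitrogen. Thus 2 of 5 tested APS4 genes were lower with no overlap, against 8.54% of all genes. Without control replicate 3, 2 of the 5 were lower at an unadjusted edgeR p under 0.05, against 6.69% of all genes. The count with no overlap includes Nitab4.5_0000977g0040, which was known when the path was chosen. Counts that include this gene are descriptions. Over the 6 genes the control libraries summed to 871 ± 183 CPM and those of low nitrogen to 786 ± 195 CPM (SD, n = 3), a log2 ratio of -0.15 (two-sided exact permutation p = 0.50) that was 0.043 without low nitrogen replicate 1.

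**Figure D3:**
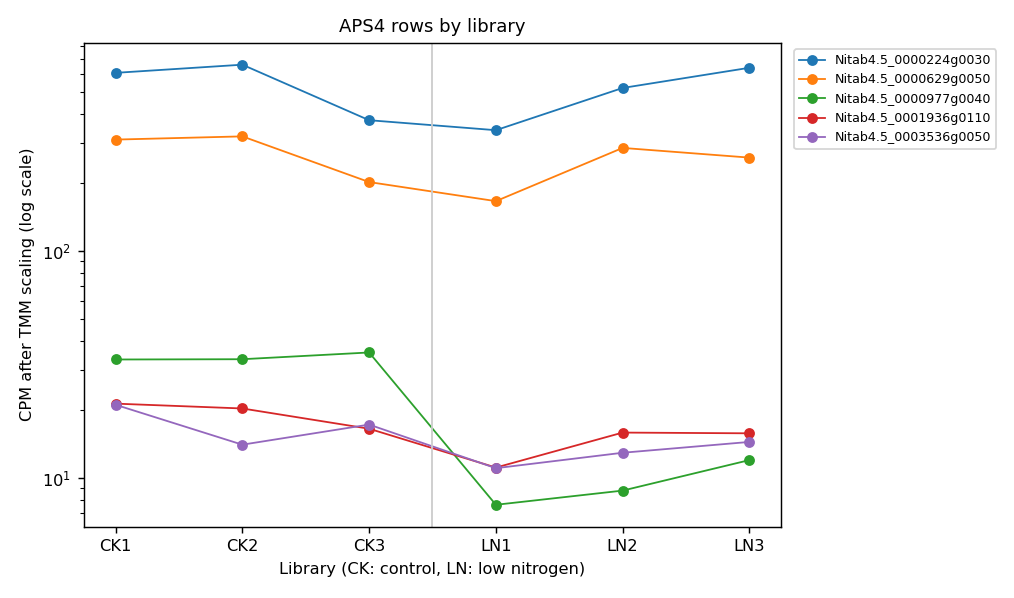
CPM after TMM scaling (log axis) of the 5 tested APS4 genes in each library, with lines that only join the values of a gene. Nitab4.5_0000977g0040 is at 33.3 to 35.8 in the controls (CK) and at 7.63 to 12 in low nitrogen (LN), while the top 2 genes dip in CK3 and LN1.

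Transcripts of APS reductase, the step at which the path is thought to be controlled most tightly in Arabidopsis, were lower in low nitrogen than in 2 of the 3 controls. The 6 APR1 genes summed to 355, 410 and 288 CPM in the controls and to 296, 297 and 262 CPM in low nitrogen. Control replicate 3 lay within the low nitrogen range, so the groups overlapped (log2 ratio -0.30, two-sided exact permutation p = 0.30). Nitab4.5_0002827g0080 was at 153, 194 and 131 CPM and at 136, 148 and 133 CPM, with a log2 fold change of -0.20 (SE 0.18). Nitab4.5_0004810g0010 was at 155, 175 and 108 CPM and at 106, 109 and 87.1 CPM, with a log2 fold change of -0.54 (SE 0.21, edgeR adjusted p 0.407). Nitab4.5_0000005g0310 was at 38.8, 35.7 and 20.9 CPM and at 18.5, 17.8 and 22.8 CPM, with a log2 fold change of -0.69 (SE 0.24, edgeR adjusted p 0.390). The latter pair were the APR1 genes, of 5 tested, with an unadjusted p under 0.05, against 5.66% of all genes lower. In both, control replicate 3 was nearest to the low nitrogen libraries. Without that library 2 APR1 genes were lower, against 6.69% of all genes. The APR-like genes, whose products resemble APR but are not known to reduce its substrate, gave 0 of 6 at an unadjusted p under 0.05, and among them APRL5 (Nitab4.5_0012156g0010) was at 37.1 ± 1.65 and 38.1 ± 0.718 CPM (SD, n = 3).

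Sulfite reductase was lower in every low nitrogen library, in both of its genes and to a like degree. Nitab4.5_0004741g0010 was at 204, 251 and 181 CPM in the controls and at 136, 144 and 138 CPM in low nitrogen. Nitab4.5_0002741g0060 was at 199, 245 and 185 CPM in the controls and at 148, 135 and 142 CPM in low nitrogen. The low nitrogen libraries lay close together. In both genes all controls were above them, as for 8.54% of all tested genes. Log2 fold changes were -0.61 (SE 0.17, edgeR adjusted p 0.357, DESeq2 adjusted p 0.0362) and -0.57 (SE 0.16, edgeR adjusted p 0.358, DESeq2 adjusted p 0.0458). With DESeq2 on all genes the adjusted p was 0.0416 for the first and 0.0522 for the second, so the call of the second depends on the filter. The edgeR and limma-voom alternatives gave adjusted p of 0.155 to 0.853 for both. Each gene took about the same part of the SIR counts everywhere, with the second at 48.5% to 52.0%. Near-identical copies may have shared reads, and the sources used here do not say how such reads were divided. Both genes together summed to 411 ± 57.2 CPM in the controls and to 287 ± 11.4 CPM under low nitrogen (SD, n = 3), with a log2 ratio of -0.52 (two-sided exact permutation p = 0.10, 0.30 after adjustment over the 6 steps). Leaving out any 1 library kept this ratio between -0.58 and -0.40.

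Serine acetyltransferase lay level or slightly higher in low nitrogen, and none of its genes passed the test. Summed over 9 SAT genes the level stood at 44.5, 61.2 and 59.4 CPM in the controls and at 57.3, 63.0 and 63.9 CPM in low nitrogen, with overlap (log2 ratio 0.16, two-sided exact permutation p = 0.40). The SAT4 genes alone summed to 21.2, 19.2 and 23.1 CPM in the controls and to 27.7, 29.6 and 23.4 CPM in low nitrogen. Here every low nitrogen library was above every control, by little for the nearest pair (log2 ratio 0.35, two-sided exact permutation p = 0.10, the smallest possible, not adjusted). The 5 SAT1 genes summed to 33.9 ± 9.58 and 34.5 ± 5.47 CPM (SD, n = 3). The 3 tested SAT4 genes had log2 fold changes of 0.14 to 0.52, and 2 of them were higher with no overlap, as were 9.66% of all tested genes. Of these, Nitab4.5_0000540g0230 was at 11.1, 12.2 and 10.8 CPM in the controls and at 12.5, 12.9 and 12.4 CPM in low nitrogen. Nitab4.5_0002967g0050 was at 8.28, 5.48 and 8.35 CPM and at 10.6, 12.6 and 8.53 CPM, with all low nitrogen libraries above the controls by a narrow margin (log2 fold change 0.52, SE 0.24, edgeR adjusted p 0.442). The 4 tested SAT1 genes had log2 fold changes of -0.19 to 0.15, and Nitab4.5_0009088g0010 was at 9.01, 17.9 and 11.3 CPM and at 12.2, 14.0 and 16.2 CPM. No SAT gene had an unadjusted edgeR p under 0.05, where 5.66% of all genes were lower and 6.1% higher.

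**Figure D4:**
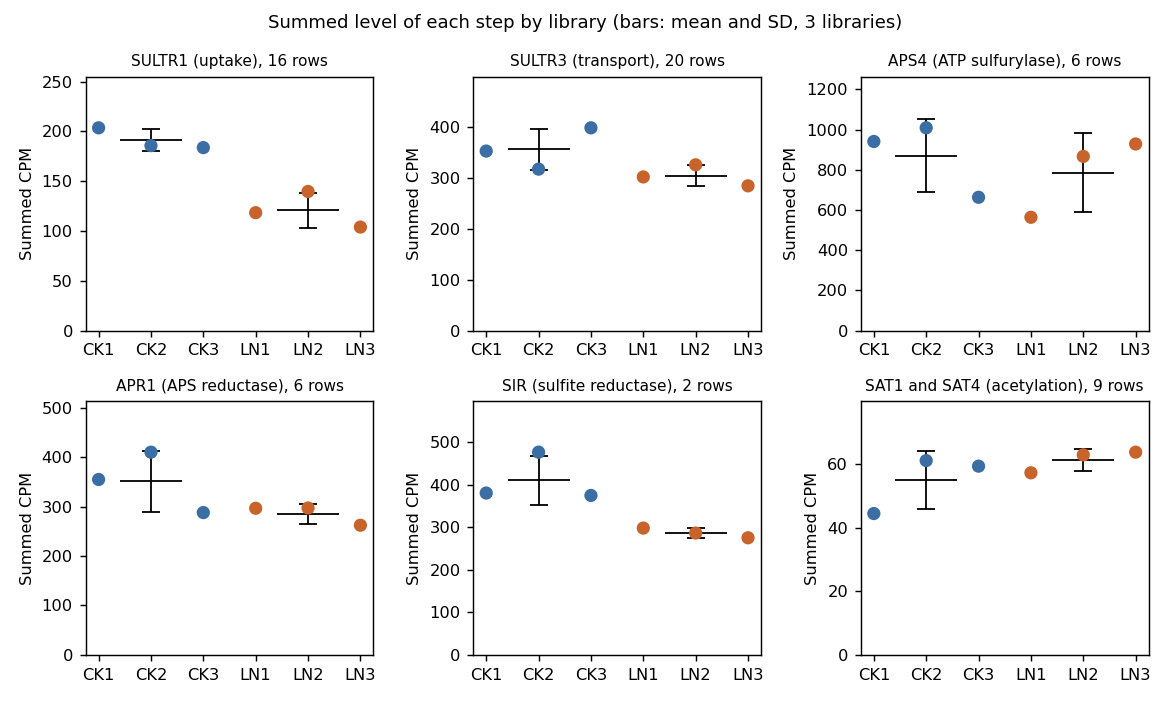
Summed CPM of all genes of each step in each library (points), with the mean and SD of 3 libraries (bars) and each axis from 0. Groups do not overlap for group 1 SULTR genes (204 to 184 against 140 to 104) and SIR (477 to 375 against 298 to 275), and overlap for the other steps. The sums are plain CPM. With TMM-scaled library sizes, not drawn, the group 3 SULTR genes do not overlap either.

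Genes around the path gave few differences outside glutathione and methionine. Both genes of glutamate-cysteine ligase, which starts glutathione synthesis from cysteine, were lower at an unadjusted edgeR p under 0.05, as were 5.66% of all genes. GSH1 (Nitab4.5_0010612g0020) was at 85.2, 98.6 and 71.4 CPM in the controls and at 42.5, 49.8 and 65.8 CPM in low nitrogen, a log2 fold change of -0.69 (SE 0.20, edgeR adjusted p 0.364). The other GSH1 gene (Nitab4.5_0003441g0130) was at 93.5, 110 and 71.7 CPM and at 50.3, 64.8 and 70.8 CPM, with control replicate 3 and low nitrogen replicate 3 almost equal.

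Of 35 tested genes of methionine and S-adenosylmethionine metabolism, 12 were lower and 4 higher at an unadjusted edgeR p under 0.05, against 5.66% and 6.1% of all genes. Without control replicate 3 these counts were 16 and 5, against 6.69% and 8.6% of all genes. With all libraries 0 passed the adjusted threshold with edgeR. DESeq2 called 1 higher and 2 lower, against 0.71% and 0.82% of the filtered genes, and the run on all genes also gave 1 and 2 (0.521% and 0.625%). The lower ones, named here after their values were seen, were MS2 (Nitab4.5_0000387g0090), a methionine synthase, and SAMS1 (Nitab4.5_0003524g0020), an S-adenosylmethionine synthetase, with edgeR log2 fold changes of -0.99 and -0.79. All 39 genes of this list summed to 7363, 7986 and 6176 CPM in the controls and to 4892, 5744 and 6116 CPM under low nitrogen, with means of 7175 ± 920 and 5584 ± 628 CPM (SD, n = 3). Every control library was above every low nitrogen library, though control replicate 3 and low nitrogen replicate 3 were almost equal. The log2 ratio was -0.36 (two-sided exact permutation p = 0.10, the smallest possible, not adjusted). SAM2 (Nitab4.5_0008624g0040), an S-adenosylmethionine synthetase, was at 979, 1021 and 878 CPM and at 617, 842 and 808 CPM, with no overlap but a log2 fold change of only -0.34 (SE 0.21). HMT-2 (Nitab4.5_0000252g0130), a homocysteine methyltransferase, was higher, at 14.0, 12.9 and 15.4 CPM and at 27.9, 22.2 and 21.4 CPM, with a log2 fold change of 0.76 (SE 0.16, edgeR adjusted p 0.332, DESeq2 adjusted p 0.0278, or 0.0323 on all genes). Its adjusted p was 0.139 to 0.853 in the edgeR and limma-voom alternatives.

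Other branches held few genes at an unadjusted edgeR p under 0.05, where 5.66% of all genes were lower and 6.1% higher. Cysteine synthesis gave 0 of 5, and OASC (Nitab4.5_0000013g0360), an O-acetylserine thiol-lyase, was at 162 ± 12.8 and 191 ± 23.5 CPM (SD, n = 3). The branch to PAPS, the sulfate donor of sulfotransferases, gave 1 lower of 17, which was SOT5 (Nitab4.5_0000016g0190, 4.93 ± 1.26 and 2.68 ± 0.910 CPM), while the APS kinase gene APK3 (Nitab4.5_0000142g0020) was at 9.72 ± 0.977 and 12.6 ± 2.40 CPM. Transcripts that mark sulfur deficiency in Arabidopsis gave 0 of 6: LSU3 (Nitab4.5_0002691g0080) was at 4.22, 3.15 and 9.98 CPM and at 13.6, 5.25 and 4.72 CPM, and LSU1 (Nitab4.5_0007121g0010) was at 3.63 ± 1.69 and 2.49 ± 0.908 CPM. Sulfite oxidation and sirohaem synthesis gave 0 of 4, with sulfite oxidase (SOX, Nitab4.5_0002050g0110) at 30.3 ± 3.22 and 29.9 ± 1.92 CPM and the sirohaem enzyme SIRB (Nitab4.5_0005432g0010) at 23.3 ± 3.45 and 26.3 ± 0.111 CPM. The molybdate transporters, relatives of SULTR, gave 0 of 5, with MOT1 (Nitab4.5_0000410g0320) at 45.3 ± 4.10 and 47.3 ± 11.0 CPM and another MOT1 gene (Nitab4.5_0005313g0040) at 1.46 ± 0.234 and 2.60 ± 2.02 CPM. APRL4 (Nitab4.5_0000394g0120) was at 10.3 ± 0.878 and 12.2 ± 0.299 CPM.

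The 19 APS1 genes, whose synonym is that of tomato acid phosphatase, showed no common shift. Of 16 tested, 1 was lower and 1 higher at an unadjusted edgeR p under 0.05, against 5.66% and 6.1% of all genes. The median log2 fold change was -0.083. Nitab4.5_0004969g0070 was at 24.1, 20.9 and 32.5 CPM in the controls and at 13.3, 21.4 and 13.9 CPM in low nitrogen (log2 fold change -0.67, SE 0.24). The higher one, Nitab4.5_0001991g0060, was at 0.893, 1.05 and 0.708 CPM and at 4.90, 1.69 and 1.04 CPM, so that low nitrogen replicate 1 set most of its difference. Nitab4.5_0000300g0180 and Nitab4.5_0005085g0050 peaked in control replicate 3, at 110 CPM (against 45.3 and 48.2) and 53.2 CPM (against 5.52 and 2.40). Nitab4.5_0001051g0060 was at 25.3, 26.2 and 26.8 CPM and at 15.7, 38.7 and 19.4 CPM.

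The 18 genes that the filter kept from the test had at most 74 counts over the 6 libraries, and 6 of them had 0. They were 5 SULTR1;1, 2 SULTR1;2, 1 SULTR3;1, 3 SULTR3;3, 1 APS4, 1 APR1, 1 SAT1, 1 SAT4 and 3 APS1 genes.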

How the data were processed

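Raw whole-number counts per gene, as the authors deposited them, were the starting point. HISAT2 is named in the submitters' processing notes, while the sources used here do not give the genome build, the strand setting, the way reads were counted or the version of HISAT2. Gene lengths are not used here, so levels are compared within a gene or sum and not between genes. None (0) of the identifiers matched the RefSeq table of assembly ASM71507v2, so no coordinates or sequences are given.

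Genes were filtered with filterByExpr, scaled by TMM and tested with edgeR 4.0.16 (glmQLFit, glmQLFTest, R 4.3.3, adjusted p by Benjamini-Hochberg over all genes tested, threshold 0.05). The SE is the fold change over the root of F. Levels of single genes are CPM after TMM scaling and sums are plain CPM, each given by library from replicate 1 to 3, controls first. DESeq2 1.42.0 on the same filtered genes and limma-voom 3.58.1 were alternatives, as were RLE and upper-quartile factors, fits with libraries left out, counts summed by symbol, a block for the replicate number, and either no filter or one of 1 CPM in at least 3 libraries. DESeq2 on all genes, the APS4 and APS1 sums and the counts without APS1 were added after the data were seen, the first of them after the calls of the filtered DESeq2 run were known. The procedure was tested on simulated data.

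The members and lists were chosen with earlier results of these data known. Values in every library are given for members with a mean of at least 20 CPM, with an unadjusted p under 0.05, or with the most counts or smallest p of their step, and for a few others named after their values were seen. Of each list around the path, the genes with the smallest p and the most counts are named. Symbols that caught other proteins (CAB39, CABIN1, PSAT, PLT1 and a yeast MOT1) were left out of the lists after the table was read, and APS1 was set apart then.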

Additional observations from a re-analysis of the deposited data

How the results depend on the processing

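Over all genes DESeq2 called 588 on the filtered genes and 565 on all genes, against 0 with edgeR. Leaving out 1 library gave 0 to 11 edgeR calls, with 11 without control replicate 3. Among the members DESeq2 called 4 and, on all genes, 3, the latter run having been added after the former was seen, while edgeR called 0 with any 1 library left out. The causes of these differences were not tested. Members higher at an unadjusted p under 0.05 were 2 of 60 (6.1% of all genes), and 1 with limma-voom (6.01%) or without the APS1 genes. They were 0 with counts summed by symbol. With 1 library left out they were 1 to 6 (6 without control replicate 3, against 8.6% of all genes). Without the pair of low nitrogen replicate 1 and control replicate 3 they were 6 of 58, with no share of all genes to set beside them. Members lower were 11 of 60 (5.66% of all genes). With DESeq2 they were 15 of 56 on the filtered genes (6.11% of all genes) and 15 of 68 on all genes (4.9%). They were 16 of 72 with no filter and 3 of 9 symbols with counts summed by symbol. With 1 library left out they were 6 to 14 (6 without low nitrogen replicate 1). No share of all genes was computed for the symbol sums, the replicate block or no filter. Of the fits with libraries left out, only the one without control replicate 3 has such a share. The median fold change was -0.44 without the APS1 genes and -0.36 to -0.14 with 1 library, or that pair, left out.

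Replicate numbers did not pair the samples: the deviations of same-numbered libraries correlated at -0.32, 0.10 and -0.27. With the replicate block edgeR called 0 genes and 0 members, with an unadjusted p under 0.05 for 2 members higher and 12 lower, and a median of -0.21.

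Log2 ratios of summed levels kept their sign in 75 of 80 recomputed values. With 1 library left out APS sums ranged from -0.25 to 0.043, APS4 sums from -0.31 to 0.043 and APS1 sums from -0.26 to 0.18. Without that pair the APS1 sum was at 0.33. Of 613 recomputed fold changes of single genes 26 changed sign, 1 of them (the APS1 gene Nitab4.5_0005085g0050, at -0.0095) with upper-quartile factors and the others with libraries left out. With 1 library or that pair left out, ranges were -0.50 to 2.55 for this gene, -0.51 to 0.47 for Nitab4.5_0000300g0180 and -0.57 to 0.16 for Nitab4.5_0001051g0060 among APS1 genes. They were -0.35 to 0.072 for APS4 Nitab4.5_0000224g0030, -0.19 to 0.20 for SULTR3;3 Nitab4.5_0000729g0130, -1.11 to 0.047 for SULTR1;1 Nitab4.5_0001254g0010 and -0.049 to 0.48 for SAT1 Nitab4.5_0009088g0010. Around the path they were -0.23 to 1.08 for LSU3, -0.11 to 0.031 for SOX, -0.038 to 1.23 for MOT1 Nitab4.5_0005313g0040 and -0.097 to 0.23 for MOT1 Nitab4.5_0000410g0320. The 18 members with few counts were left out by the filter. Without a filter 72 members were tested, with 16 lower and 2 higher at an unadjusted p under 0.05, and no member passed the adjusted threshold.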
